A study of Mus musculus with 17 samples.

Results

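Genes of the splicing machinery and of the RNA-binding proteins that steer it were followed across all 17 arrays of the series. Members were taken by gene symbol in the platform annotation: SR proteins (Srsf and the older Sfrs symbols), heterogeneous nuclear ribonucleoproteins (hnRNPs), the Snrp genes for proteins of the small nuclear ribonucleoproteins (snRNPs), subunits of SF3a and SF3b, the Prpf genes and the U2af genes. This gave 60 of 18256 named genes, each with 1 probe. A probe entered the tests when its mean log2 signal reached 6.41, the median of all probes, and 55 members did so among 9940 tested features. Hnrnpr, Sf3a2, Snrpb2, Snrpe and Srsf12 lay below it, and none of the 5 changed in a time-course test without the filter, with adjusted p between 0.449 and 0.971. One member, formerly Sfrs16, is now called Clasrp and is counted with the SR proteins.

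The cultures held neural precursor cells from the hippocampus of adult mice, grown as a layer on poly-D-lysine and laminin in Neurobasal medium with B27, GlutaMAX, bFGF and EGF. Both growth factors were withdrawn to start differentiation, and total RNA was hybridised to 1 Illumina bead array for each time from 0 min, the proliferating culture, to 720 min. The labels give no strain, sex, age or number of animals, and parallel cultures left in bFGF and EGF are not among the samples, so time in culture and growth factor withdrawal cannot be told apart. Neighbouring times were pooled into windows. The 5 arrays from 0 to 60 min form the early window, the 4 from 90 to 180 min the second, the 3 from 240 to 360 min the third and the 5 from 420 to 720 min the late window.

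Splicing removes introns from pre-mRNA in the spliceosome, which is built on each intron from U snRNPs and many further proteins. SR proteins bind exonic RNA and mostly favour use of the neighbouring splice sites, whereas many hnRNPs bind intronic or exonic elements and hold sites back. U2af marks the end of the intron, SF3a and SF3b belong to the U2 snRNP at the branch site, and the Prp proteins, first found in yeast, include the core of the tri-snRNP that forms the active spliceosome. In neural tissue a change in the balance of such regulators accompanies the passage from progenitor to neuron and gives many transcripts a neural set of exons.

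Promoter sequences are shown for 4 members, the members with the largest fall among the SF3 complexes, the SR proteins and the hnRNPs and the Snrp gene that rose. They are the 250 bases before the gene start on the gene's strand, 5′ to 3′, from RefSeq on GRCm38.p6. Capitals mark matches on either strand to CCAAT (the CCAAT box), CCGGAAG (bound by ETS factors), TGACGT (in the cAMP response element bound by Atf and Creb factors) and CACGTG (an E-box). Sf3b3 lies at chr8:110846804-110847053 on the minus strand, Srsf6 at chr2:162931258-162931507 on the plus strand, Hnrnpab at chr11:51606882-51607131 on the minus strand and Snrpa at chr7:27196272-27196521 on the minus strand.
Sf3b3: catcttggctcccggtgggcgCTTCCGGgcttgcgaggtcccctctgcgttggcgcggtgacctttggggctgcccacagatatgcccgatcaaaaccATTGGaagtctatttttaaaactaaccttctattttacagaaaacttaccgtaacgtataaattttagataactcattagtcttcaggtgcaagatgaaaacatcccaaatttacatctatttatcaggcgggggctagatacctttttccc
Srsf6: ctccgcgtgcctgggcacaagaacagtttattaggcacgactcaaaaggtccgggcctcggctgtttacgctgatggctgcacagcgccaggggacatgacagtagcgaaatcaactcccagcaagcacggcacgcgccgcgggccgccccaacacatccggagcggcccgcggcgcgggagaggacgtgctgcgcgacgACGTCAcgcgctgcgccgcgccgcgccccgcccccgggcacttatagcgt
Hnrnpab: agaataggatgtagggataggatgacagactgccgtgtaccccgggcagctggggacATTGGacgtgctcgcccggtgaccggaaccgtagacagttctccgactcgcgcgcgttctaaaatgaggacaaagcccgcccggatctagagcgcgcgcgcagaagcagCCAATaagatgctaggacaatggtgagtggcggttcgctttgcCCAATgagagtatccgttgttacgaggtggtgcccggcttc
Snrpa: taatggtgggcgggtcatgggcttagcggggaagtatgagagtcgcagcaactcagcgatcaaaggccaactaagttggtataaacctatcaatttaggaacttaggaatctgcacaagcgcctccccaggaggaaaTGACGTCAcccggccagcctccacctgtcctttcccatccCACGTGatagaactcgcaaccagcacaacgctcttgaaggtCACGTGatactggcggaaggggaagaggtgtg
Sf3b3 has the ETS letters at 229 bases and a CCAAT box at 152 bases before its start. Srsf6 has TGACGT on its minus strand at 50 bases, and Hnrnpab has CCAAT boxes at 193, 84 and 41 bases. In Snrpa the palindrome TGACGTCA is read on both strands and so gives a pair of overlapping matches, at 113 and 111 bases, and E-boxes lie at 73 and 32 bases.

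A promoter was found for 53 of the 60 members, by symbol, in a table of 27025. TGCGCA, the core of the site for the factor NRF1, was in 28.3% of member promoters, against 6.66% of all promoters and 12.9% of the 7326 promoters of genes above the filter. CCGGAAG was in 24.5% of member promoters, against 7.05% and 14.7%. TGACGT was in 18.9%, against 6.56% and 10.8%, and TTGCATC, the core of the element bound by Atf4 with Cebp factors, was in 1.89%, against 2.18% and 1.71%. The remaining motifs, as shares of member promoters, all promoters and promoters above the filter, were CCAAT with 47.2%, 34.5% and 37.3%, GGGCGG (the GC box) with 67.9%, 32.9% and 61.4%, TTCCCGC (E2F) with 13.2%, 3.84% and 7.43%, and CACGTG with 9.43%, 6.05% and 8.5%. By direction in the late window, CCGGAAG was in 5 of 16 promoters of members that fell and 0 of 5 of members that rose, TGCGCA in 6 and 1, TGACGT in 2 and 3, and CACGTG in 0 and 1. CCAAT was in 7 and 1, GGGCGG in 8 and 3, TTCCCGC in 4 and 1, and TTGCATC in 0 and 0. Among the 27 promoters of members not called, CCGGAAG and TGCGCA were each in 6, TGACGT in 5 and CACGTG in 4. CCAAT was in 16 of these 27, GGGCGG in 21, TTCCCGC in 2 and TTGCATC in 1. These are matches of letters in short windows, and with 5 promoters in a group the shares are coarse.

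The deposited values are log2 signals whose distribution is nearly the same on every array, with medians between 6.40 and 6.42, so a change is a change relative to the other transcripts. In bulk RNA fewer cells of a type and less RNA per cell cannot be told apart. Sox2, Nes, Vim and Fabp7, which mark neural precursors, were well above the filter on all arrays, with Nes between 10.85 and 11.98 and Vim between 12.94 and 13.55. Of 13 stem and progenitor markers on the array 10 lay above the filter, and Pax6, Prom1 and Msi1 lay below it. Pax6 was dim throughout at 5.72 to 6.14, and the early neuronal markers Dcx and Tubb3 at 6.05 to 6.56 and 5.76 to 6.30. Of 14 neuronal markers on the array 6 lay above the filter (Map2, Neurod2, Prox1, Gap43, Calb2 and Syn1), and 2 of them were higher and 2 lower in the late window. That is 33.3% each way, against 27.9% of all features higher and 27.0% lower. Probe sequences were not used here, so reading of a related gene or of single isoforms by a probe was not tested, and signals are not ranked between probes.

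Over the whole time course 27 of 55 members changed (49.1%), against a background of 61.9% of all tested features. Of these, 19 moved downward, against 31.1% of all features (34.5% of members), and 8 upward, against 30.8% (14.5% of members). The test was limma's moderated F test of a smooth curve with a Benjamini-Hochberg adjusted p under 0.05, and direction is that of the largest departure of the curve from 0 min. A sustained fall, still beyond its midpoint at 720 min, was found for 16 members, with 23.6% of all features so classed, and a sustained rise for 4, with 24.5%. Transient rises numbered 4 (6.30% of all features) and transient falls 3 (7.54%). The members with a sustained fall reached the midpoint of the fall at a median of 360 min, between 150 and 600 min, against 300 min over all features with a sustained fall. Snrpa, Prpf6, Hnrnph3 and Hnrnph2 made up the sustained rises, and Srsf11, Snrpb, Snrpf and Hnrnpdl the transient rises. Hnrnph2 rose only against 0 min: its change from the early to the late window was 0.01 on the log2 scale and did not pass. Over 29 repeats with other processing or an array left out, the call of Snrpb was kept in 14 and lost in 13. That of Srsf11 was lost with a curve of 3 df. The direction given to Srsf11, Srsf5, Snrpa, Snrpb, Snrpd2, Hnrnpdl and Hnrnph2 turned when the array at 0 min was left out, so these are described below by their windows. In that repeat the 0 min value of the curve was extrapolated from the later arrays.

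**Figure D1:**
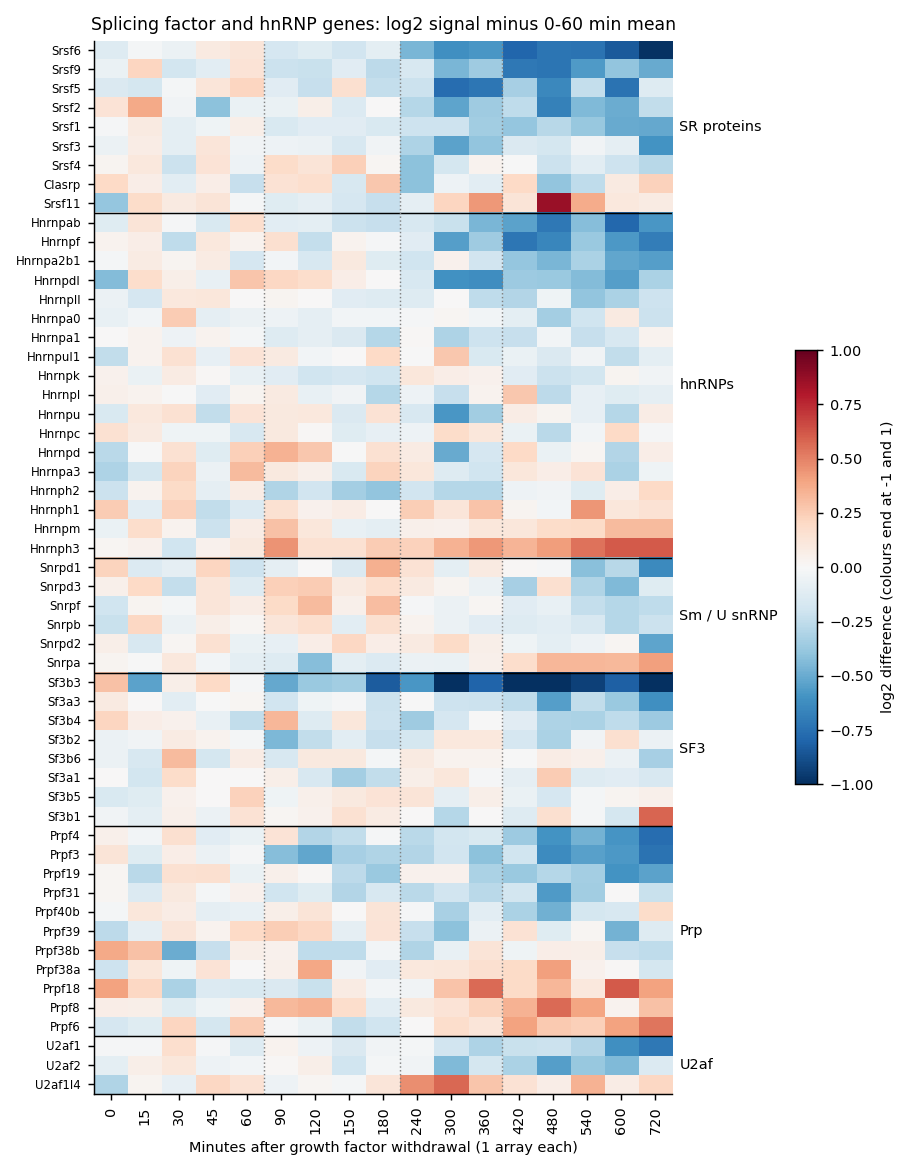
Log2 signal of each of the 55 members above the filter at each of 17 times in minutes, as the difference from that member's own mean over 0 to 60 min, ordered by family. From 420 to 720 min 36 to 40 of the 55 members lay below their early mean. From 150 to 360 min the number was already 33 to 36.

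Below, SD is the spread of the arrays in a window, each from another time, and SE is the standard error of a change in limma's fit. In the late window 19 members were lower than in the early window, 34.5% of the 55 against 27.0% of all features, and 6 were higher, 10.9% against 27.9%. In all, 45.5% of members and 54.9% of all features changed. The median change of the members was -0.14 on the log2 scale, that of all features 0.00, and 43 of 55 members had a change below 0. The changes were modest in size: the median size was 0.208 for members and 0.267 for all features, and Sf3b3 alone among the members changed by 2-fold or more. In 13 members all late arrays lay below all early ones (23.6%, against 19.1% of all features) and in 2 they lay above (3.64%, against 19.4%). Of the 25 calls, 20 held in every alternative processing and with each array left out. The call of Hnrnpm was lost without 0, 30, 45, 540, 600 or 720 min, that of Prpf18 without 30, 45, 60, 480, 600 or 720 min and that of Sf3b4 without 0, 15, 30, 480, 540 or 720 min. The call of Prpf31 was lost without 480 min, that of Hnrnpll with other window limits, and that of Prpf18 also with other window limits and with no filter on dim probes. Among the 25, Sf3b4, Hnrnpll, Hnrnpm, Prpf31 and Prpf8 did not pass the time-course F test (adjusted p = 0.0515, 0.0652, 0.136, 0.108 and 0.205).

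**Figure D2:**
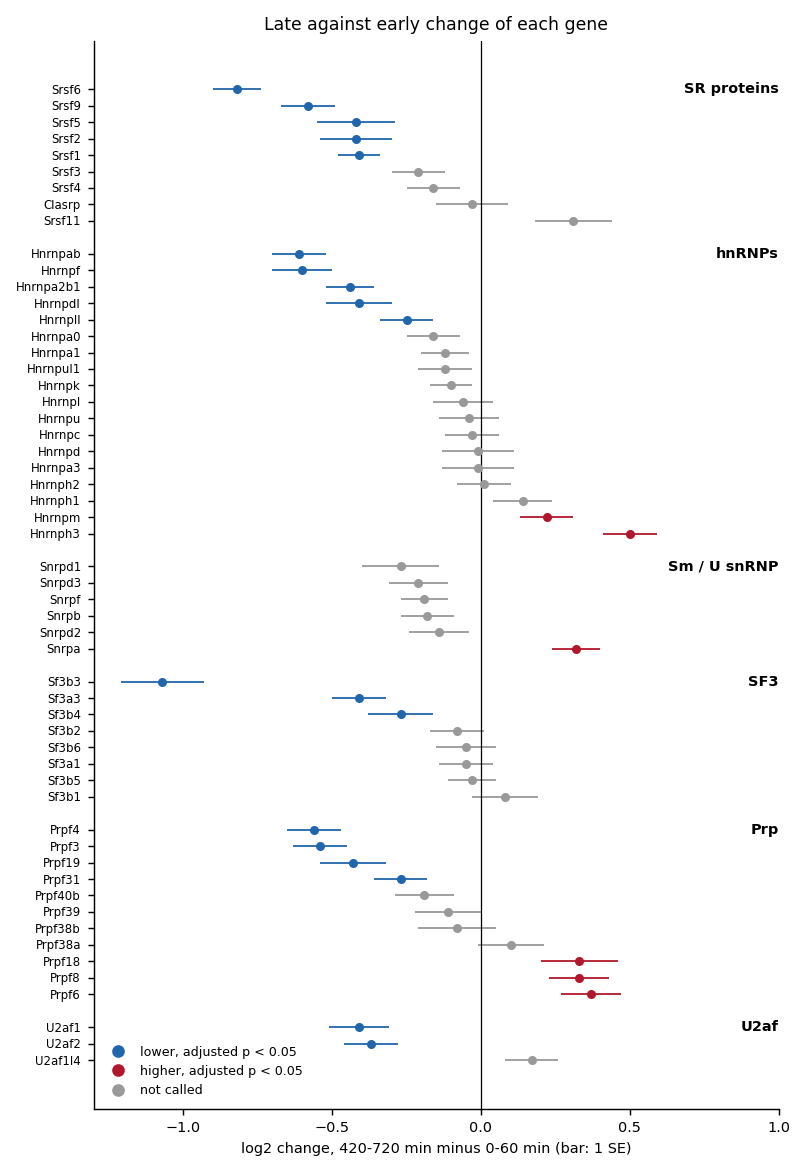
Change of each member from the early to the late window on the log2 scale, with the standard error of the limma fit as bars, by family, with blue for lower, red for higher and grey for members not past the threshold. Sf3b3 lies lowest at -1.07 and Hnrnph3 highest at 0.50.

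In the second window 3 members were lower, 5.45% of the 55 against 6.13% of all features, and 0 were higher against 5.48%. Across both directions 11.6% of all features had changed. Sf3b3 was at -0.52 (SE 0.14, adjusted p = 0.0192), Prpf3 at -0.39 (SE 0.10, adjusted p = 0.00936) and Hnrnph2 at -0.30 (SE 0.09, adjusted p = 0.0306). Prpf3 was the call that held without the array at 180 min, which brought the count from 3 to 1. The call of Sf3b3 was also lost without 0 or 45 min, that of Hnrnph2 without 15, 30, 60 or 150 min, and both with other window limits.

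In the third window 12 members were lower, 21.8% against 18.0% of all features, and 2 were higher, 3.64% against 17.0%. Across both directions 25.5% of members and 35.0% of all features had changed. The 12 were Srsf1, Srsf2, Srsf3, Srsf5, Srsf6 and Srsf9, Hnrnpab, Hnrnpdl, Hnrnpf and Hnrnpu, Prpf3 and Sf3b3, and the higher members were U2af1l4 and Hnrnph3. Of these, Srsf3, Hnrnpu and U2af1l4 did not pass the time-course F test (adjusted p = 0.0662, 0.31 and 0.0519). With 3 arrays the window rests on each of them: without 300 min the count changed fell from 14 to 8, with 6 lower, and without 360 min to 5, with 4 lower and 1 higher. The second, the third and the late window were all compared with the same 5 early arrays. Between the second and the late window, which share no array, 20 members fell, 36.4% against 20.8% of all features, and 6 rose, 10.9% against 22.1%, with 42.9% of all features changed. No member passed the test with opposite signs in the second and the late window (0.211% of all features in each order).

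**Figure D3:**
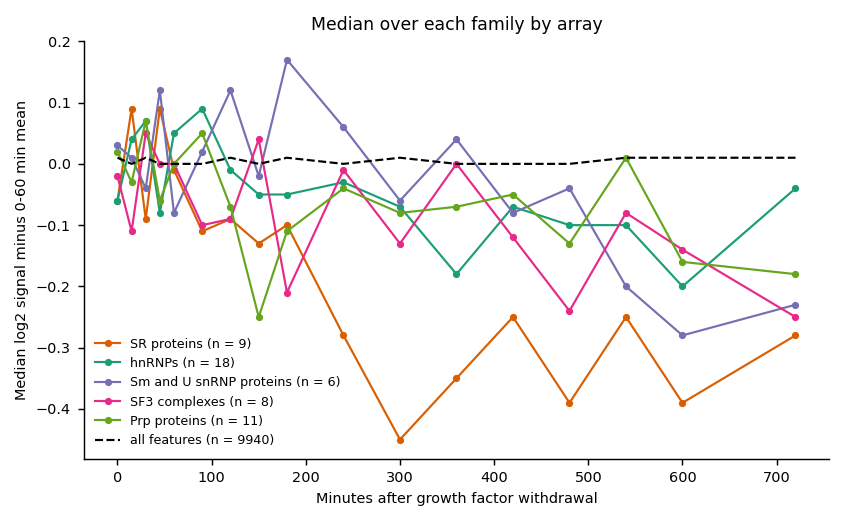
Median over the tested members of each family with more than 3 members of the difference in log2 signal from the early mean, at each of 17 times in minutes, with all tested features for comparison. The SR protein median reached -0.45 at 300 min, and that of all features stayed between -0.00 and 0.01.

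Of 9 tested SR proteins 6 were lower in the third window and 5 in the late window, 0 were higher in either, and the family median was -0.32 and then -0.41. The share lower was 66.7% in the third window, against 18.0% of all features, and 55.6% in the late window, against 27.0%, while 17.0% and 27.9% of all features were higher. None passed in the second window. The third-window calls of Srsf1, Srsf2 and Srsf9 were lost without 360 min, and those of Srsf2 and Srsf9 also without 300 min. Those of Srsf1 and Srsf9 were lost with other window limits, that of Srsf2 without 0 or 15 min and that of Srsf9 without 15 or 60 min. The calls of Srsf3, Srsf5 and Srsf6 held in every repeat. Srsf6, a regulator of alternative exons, was at 11.65, 11.76, 11.72, 11.87 and 11.90 in the early arrays in time order and at 10.99, 11.05, 11.04, 10.94 and 10.79 in the late ones. Its second-window arrays lay at 11.59 to 11.68 and those of the third window at 11.32, 11.17 and 11.20, so that the third and late windows lay wholly below the first 180 min. Its early mean of 11.78 ± 0.11 (SD, n = 5) fell to 10.96 ± 0.11 (SD, n = 5), a change of -0.82 (SE 0.08, adjusted p = 1.03e-08) or 1.76-fold lower, and the midpoint of the fall was at 360 min.

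Srsf9, which takes part in both constitutive and alternative splicing, was at 12.36, 12.64, 12.24, 12.32 and 12.56 in the early arrays and at 11.71, 11.69, 11.86, 12.03 and 11.92 in the late arrays, without overlap. It fell by 0.58 (SE 0.09, adjusted p = 1.33e-05), or 1.5-fold. Srsf1, the founding member of the family and an essential splicing factor, was at 13.46 to 13.65 early and 13.05 to 13.28 late. It changed by -0.25 (SE 0.08, adjusted p = 0.0229) in the third window, a call lost without 360 min, and -0.41 (SE 0.07, adjusted p = 5.62e-05) in the late window, and its late arrays again lay wholly below its early ones.

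The early and late arrays of Srsf2 and Srsf5 overlapped. Srsf2, which sits in nuclear speckles, was at 13.02, 13.26, 12.85, 12.47 and 12.82 early and 12.63, 12.21, 12.44, 12.39 and 12.64 late, with the array at 45 min inside the late range, and fell by 0.42 (SE 0.12, adjusted p = 0.00343). Srsf5 was lowest in the third window, at 11.94, 11.39 and 11.43, a change of -0.56 (SE 0.15, adjusted p = 0.00433). In the late window it ranged from 11.41 to 12.02 and overlapped its early values of 11.98 to 12.37, with a change of -0.42 (SE 0.13, adjusted p = 0.00748). Srsf3, an SR protein that also aids mRNA export, was lower in the third window alone, at 9.68, 9.45 and 9.59 against 9.89 to 10.11 early, a change of -0.41 (SE 0.11, adjusted p = 0.00473). Its late value was -0.21 (SE 0.09, adjusted p = 0.0656), and 1 late array stood apart, at 9.39.

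Srsf4, Srsf11 and Clasrp did not pass in any comparison with the early window. Srsf11, an SR-related protein, had the widest fitted curve after Srsf6, with a range of 0.80. It was lowest at 10.28 at 0 min, stayed between 10.44 and 10.88 from 15 to 300 min and was highest at 11.53 at 480 min. Its late change was 0.31 (SE 0.13, adjusted p = 0.0551), the one value above 0 among the 9, and from the second to the late window it rose by 0.46 (SE 0.14, adjusted p = 0.0114).

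**Figure D4:**
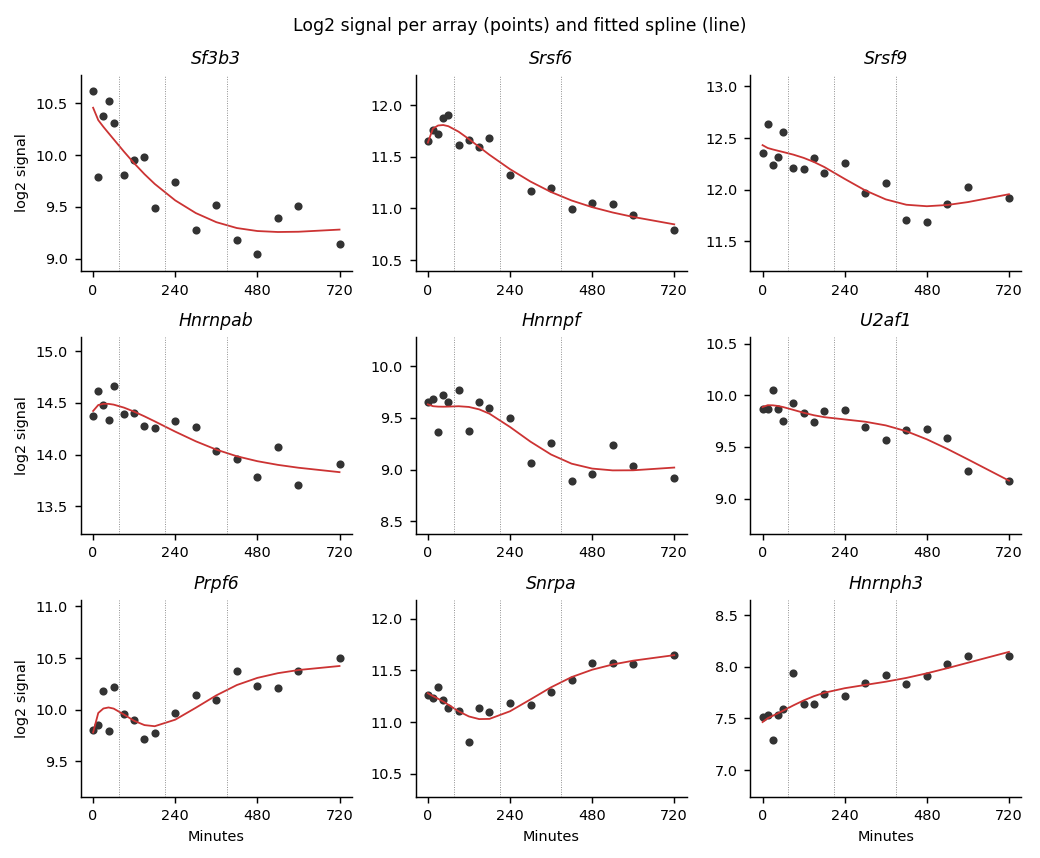
Log2 signal at each of 17 times in minutes (points) with the fitted curve (line) for Sf3b3, Srsf6, Srsf9, Hnrnpab, Hnrnpf, U2af1, Prpf6, Snrpa and Hnrnph3. Sf3b3 lies at 9.98 or below at 15 min and from 90 min on, Srsf6 steps down between 180 and 300 min, and Snrpa and Hnrnph3 end above all their early values.

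Among 18 tested hnRNPs 5 were lower and 2 higher in the late window, and the family median was -0.08. The share lower, 27.8%, was close to the 27.0% of all features, and the share higher was 11.1% against 27.9%. Hnrnpab, an RNA-binding protein of the A/B group that is abundant in brain and takes part in mRNA transport, was at 14.37, 14.62, 14.48, 14.34 and 14.66 early and at 13.96, 13.78, 14.07, 13.71 and 13.91 late. No late array reached an early one, and the mean went from 14.49 ± 0.14 (SD, n = 5) to 13.89 ± 0.14 (SD, n = 5), a change of -0.61 (SE 0.09, adjusted p = 5.28e-06) or 1.52-fold lower. Hnrnpf, which binds runs of guanines near splice sites, was at 9.65, 9.68, 9.36, 9.72 and 9.65 early and 8.89, 8.96, 9.24, 9.04 and 8.92 late, again without overlap although the array at 30 min stood low. It fell by 0.60 (SE 0.10, adjusted p = 2.47e-05), most of it after the second window, from which the late window differed by -0.59 (SE 0.11, adjusted p = 0.000106).

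Hnrnpa2b1, which binds and sorts mRNAs in neural cells, was at 12.67 to 12.92 early and 12.29 to 12.52 late and fell by 0.44 (SE 0.08, adjusted p = 8.97e-05). Hnrnpdl, a relative of hnRNP D, had a different course, at 10.93 at 0 min, 11.29 to 11.64 from 15 to 180 min, and 10.74 to 11.20 from 240 min. Against the early window it was at -0.46 (SE 0.13, adjusted p = 0.00794) in the third window, a call lost without 300 or 360 min, and -0.41 (SE 0.11, adjusted p = 0.00393) in the late window, in which its arrays, at 10.81 to 11.05, reached the 0 min value. Hnrnpll, known from T cells as a regulator of exon skipping, fell by 0.25 (SE 0.09, adjusted p = 0.0153).

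Hnrnph3, a small relative of the guanine-run binding hnRNPs, moved the other way. It was at 7.51, 7.53, 7.29, 7.53 and 7.59 early and at 7.83, 7.91, 8.03, 8.10 and 8.10 late. Every array from 90 min on lay above every early array. The change was 0.33 (SE 0.10, adjusted p = 0.0121) in the third window, a call lost without 360 min, and 0.50 (SE 0.09, adjusted p = 3.62e-05) in the late window, or 1.42-fold higher. Its relative Hnrnph1 had a late value of 0.14 (SE 0.10, adjusted p = 0.252), and Hnrnph2 was back at 7.50 to 7.82 in the late arrays after 7.23 to 7.43 in the second window, a rise of 0.32 (SE 0.09, adjusted p = 0.00731) between those windows. The guanine-run binding hnRNPs thus include a member that fell, Hnrnpf, and one that rose, Hnrnph3. Hnrnpm rose by 0.22 (SE 0.09, adjusted p = 0.0393), with arrays of 13.40 to 13.60 late and 13.07 to 13.46 early that overlap.

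Several of the classical nuclear hnRNPs had the flattest curves of all members. Hnrnpc, which binds uridine tracts on nascent transcripts, ranged from 13.80 to 14.27 over all 17 arrays and had a late value of -0.03 (SE 0.09, adjusted p = 0.78). Hnrnpk, a binder of cytosine-rich RNA, ranged from 11.06 to 11.39, with a late value of -0.10 (SE 0.07, adjusted p = 0.235), and Hnrnpl, which binds CA repeats, had -0.06 (SE 0.10, adjusted p = 0.628). Hnrnpa0 had -0.16 (SE 0.09, adjusted p = 0.134). The fitted curves of these 4 and of Sf3b2 spanned 0.15 to 0.22 on the log2 scale, the smallest spans among members.

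The 6 tested Snrp genes split into the U1 component Snrpa and 5 genes of the Sm ring, the protein ring shared by the spliceosomal snRNPs. Snrpa was at 11.26, 11.23, 11.34, 11.21 and 11.14 early, at 11.11, 10.81, 11.14 and 11.10 in the second window, and at 11.41, 11.57, 11.57, 11.56 and 11.65 late. All late arrays lay above all the earlier arrays, of every window, and the rise was 0.32 (SE 0.08, adjusted p = 0.00185) from the early and 0.51 (SE 0.08, adjusted p = 4.1e-05) from the second window. The Sm genes Snrpb, Snrpd1, Snrpd2, Snrpd3 and Snrpf had late values of -0.27 to -0.14 against the early window, and 0 of the 5 passed. Of the 6 Snrp genes 1 was thus higher and 0 lower in the late window, against 27.9% and 27.0% of all features.

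Against the second window 3 of the 6 tested Snrp genes fell, all of them Sm genes, and 1 rose, Snrpa. Of all features 20.8% were lower and 22.1% higher in that comparison. Snrpf changed by -0.41 (SE 0.09, adjusted p = 0.000628), from 11.35, 11.48, 11.21 and 11.47 to 11.05, 11.09, 10.92, 10.88 and 10.91, without overlap. Snrpd3 changed by -0.40 (SE 0.11, adjusted p = 0.00582), with its late array at 480 min, 12.94, inside the second-window range of 12.87 to 13.03. Snrpb changed by -0.26 (SE 0.09, adjusted p = 0.0223), a call lost without 90, 120, 180 or 600 min. Snrpd1 and Snrpd2 changed over the time course (adjusted p = 0.00242 and 0.0227), and both had their lowest value at 720 min, 11.90 and 12.74, without which neither passed.

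Of 8 tested SF3 subunits 3 were lower and 0 higher in the late window, and the median was -0.07. That is 37.5% lower against 27.0% of all features, of which 27.9% were higher. Sf3b3, a large scaffold subunit of SF3b, was at 10.62, 9.79, 10.38, 10.52 and 10.31 early, at 9.81, 9.95, 9.98 and 9.49 in the second window, at 9.74, 9.28 and 9.52 in the third, and at 9.18, 9.04, 9.39, 9.51 and 9.14 late. The array at 15 min lay low, within the second-window range, and no late array reached an early one. The mean went from 10.32 ± 0.32 (SD, n = 5) to 9.25 ± 0.19 (SD, n = 5), a change of -1.07 (SE 0.14, adjusted p = 6.67e-07) or 2.11-fold lower, with the midpoint of the curve at 150 min.

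Sf3a3, a subunit of SF3a, was at 11.85 to 12.04 early and 11.34 to 11.71 late and fell by 0.41 (SE 0.09, adjusted p = 0.000337). Sf3b4, a subunit with RNA-recognition motifs, fell by 0.27 (SE 0.11, adjusted p = 0.0328), with overlapping arrays. Sf3b1, the subunit that contacts the branch site, was near the filter at 6.14 to 7.01 and had 0.08 (SE 0.11, adjusted p = 0.553). Sf3b2, Sf3b5, Sf3b6 and Sf3a1 had late values of -0.08 to -0.03.

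Of the 11 Prp proteins 4 were lower and 3 higher in the late window. The share higher, 27.3%, was close to the 27.9% of all features, and the share lower was 36.4% against 27.0%. Prpf3 and Prpf4, which bind each other in the U4/U6 snRNP, both fell, but from different times. Prpf3 was at 10.89, 10.64, 10.83, 10.70 and 10.75 early and already at 10.34, 10.24, 10.43 and 10.46 in the second window, without overlap, and its late arrays were at 10.56, 10.13, 10.22, 10.19 and 10.02. Its late change was -0.54 (SE 0.09, adjusted p = 3.77e-05). Prpf4 was at 8.94, 8.86, 9.05, 8.78 and 8.82 early, still at 8.60 to 9.03 in the second window, and at 8.53, 8.29, 8.42, 8.30 and 8.13 late, a change of -0.56 (SE 0.09, adjusted p = 2.87e-05). The midpoints of their curves were at 150 and 480 min.

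Prpf19, the ubiquitin ligase of the complex that activates the spliceosome, fell by 0.43 (SE 0.11, adjusted p = 0.00173), from 11.95 to 12.38 early to 11.62 to 11.93 late. Prpf31, also a tri-snRNP protein, fell by 0.27 (SE 0.09, adjusted p = 0.0157) at a signal close to the filter. The rises included Prpf6, a tri-snRNP bridge between U5 and U4/U6, at 9.80, 9.85, 10.18, 9.79 and 10.22 early and 10.37, 10.23, 10.21, 10.37 and 10.50 late, a change of 0.37 (SE 0.10, adjusted p = 0.00259). Only the array at 540 min fell inside its early range, at 10.21 against 10.22 at 60 min. Prpf8, the scaffold of the catalytic core, rose by 0.33 (SE 0.10, adjusted p = 0.00705), with late arrays of 9.58 to 10.11 against 9.42 to 9.61. Prpf18, needed for the second step, had a late change of 0.33 (SE 0.13, adjusted p = 0.0358). It was at 10.12, 9.92, 9.40, 9.58 and 9.56 early and at 9.82 to 10.33 late, with overlap. Its fitted curve was classed as a transient fall, and its value at 720 min, 10.12, equalled that at 0 min. Thus tri-snRNP genes were found on both sides: Prpf3, Prpf4 and Prpf31 lower, Prpf6 and Prpf8 higher. Of these, Prpf31 and Prpf8 did not pass the time-course F test (adjusted p = 0.108 and 0.205). The remaining 4, Prpf38a, Prpf38b, Prpf39 and Prpf40b, did not pass against the early window.

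Both subunits of U2af fell in the late window. Of the 3 tested U2af genes 66.7% were lower and 0% higher, against 27.0% and 27.9% of all features. U2af1, which reads the AG at the end of the intron, was at 9.87, 9.87, 10.05, 9.87 and 9.75 early and at 9.66, 9.67, 9.59, 9.27 and 9.17 late, a change of -0.41 (SE 0.10, adjusted p = 0.00128). U2af2, which binds the pyrimidine tract, was at 9.97, 10.13, 10.18, 10.02 and 10.04 early and at 9.75, 9.52, 9.69, 9.63 and 9.93 late, a change of -0.37 (SE 0.09, adjusted p = 0.00169). Neither pair of windows overlapped, and in 19.1% of all features the late arrays lay wholly below the early ones. U2af1l4, a paralogue that can stand in for U2af1, was higher in the third window, at 8.16, 8.27 and 7.97 against 7.39 to 7.90 early, a change of 0.44 (SE 0.11, adjusted p = 0.0031), and in the late window had 0.17 (SE 0.09, adjusted p = 0.143).

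By the median over pairs, profiles over the 17 arrays were most alike among SR proteins, but close pairs were also found across families. The median Pearson correlation was 0.45 over the 36 pairs within the SR proteins and 0.36 over the 15 Snrp pairs, against 0.10 over all 1485 pairs of members. It was 0.12 within the hnRNPs, 0.07 within the SF3 complexes, -0.03 within the Prp proteins and -0.29 over the 3 U2af pairs. The most alike pair was Srsf1 and Srsf6 with 0.93, followed by Srsf1 and Hnrnpab with 0.90 and Srsf6 and Hnrnpf with 0.89, and the most opposed were Snrpa and Snrpf with -0.85 and Srsf1 and Hnrnph3 with -0.84. These values are descriptions over times that follow one another in 1 series of arrays, so any pair with a steady trend scores high.

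Other splicing genes were read from 5 lists. The first holds 11 kinases of the Srpk, Clk and Dyrk families, which include the kinases that phosphorylate SR proteins. Of the 11, 7 were higher and 2 lower in the late window, and the median was 0.33. The shares were 63.6% higher and 18.2% lower, against 27.9% and 27.0% of all features. Dyrk1b went from 8.75 ± 0.12 (SD, n = 5) early to 10.79 ± 0.35 (SD, n = 5) late, a change of 2.04 (SE 0.16, adjusted p = 8.15e-10), and was at 9.78 ± 0.48 (SD, n = 4) in the second window. Clk1, a nuclear kinase of SR proteins, went from 9.53 ± 0.44 (SD, n = 5) to 10.68 ± 0.16 (SD, n = 5), a change of 1.15 (SE 0.18, adjusted p = 1.07e-05) of which 0.86 (SE 0.19, adjusted p = 0.00368) was present in the second window. Srpk3, best known from muscle, began near the filter at 6.52 and changed by 2.04 (SE 0.17, adjusted p = 1.87e-09). Clk4, Srpk2, Clk2 and Clk3 also rose, by 0.28 to 0.51. Dyrk3 fell by 0.73 (SE 0.11, adjusted p = 6.59e-06) and Srpk1, the main cytoplasmic SR protein kinase, by 0.50. Dyrk1a and Dyrk2 had -0.07 and -0.17 and did not pass.

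Genes for snRNP assembly and for Sm-like proteins fell more often than they rose: of 27 tested, 15 were lower and 1 higher late, and the median was -0.37. The shares were 55.6% and 3.7%, against 27.0% and 27.9% of all features. Gemin6 and Gemin4 belong to the SMN complex, which loads the Sm ring onto snRNA. Gemin6 fell from 10.52 ± 0.13 (SD, n = 5) to 9.28 ± 0.32 (SD, n = 5), by 1.25 (SE 0.13, adjusted p = 5.44e-08), and Gemin4 from 10.36 ± 0.17 (SD, n = 5) to 9.21 ± 0.13 (SD, n = 5), by 1.15 (SE 0.13, adjusted p = 1.07e-07). Wdr77, partner of the arginine methyltransferase Prmt5 that methylates Sm proteins, fell by 0.96 (SE 0.11, adjusted p = 2.23e-07), and Lsm6, of the U6-binding Lsm ring, by 0.69 (SE 0.10, adjusted p = 2.15e-06). The Sm genes themselves stood at -0.27 to -0.14, and the difference between the lists was not tested.

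Of 62 other spliceosome proteins 12 were higher and 18 lower late, with Ppil1 at -0.79, Rnps1 at -0.70, Usp39 at -0.58 and Syf2 at 0.54 the largest. The shares were 19.4% higher and 29% lower, against 27.9% and 27.0% of all features. Of 48 other regulators 10 were higher and 10 lower, 20.8% each. Tia1, which binds uridine-rich introns, rose by 0.73 (SE 0.11, adjusted p = 5.27e-06), and Pcbp4 and Rbm5 each by 0.70, while the methyltransferase Prmt1 fell by 0.62 (SE 0.11, adjusted p = 5.57e-05).

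Of 16 tested neural and tissue regulators 1 was higher and 4 lower, 6.25% and 25% against 27.9% and 27.0% of all features, so the share lower was close to that of all features. Ptbp1, the repressor of neural exons in progenitors and other non-neuronal cells, fell from 12.46 ± 0.12 (SD, n = 5) to 11.66 ± 0.14 (SD, n = 5), by 0.81 (SE 0.09, adjusted p = 6.76e-08). Its neural paralogue Ptbp2 had a late value of -0.12, adjusted p = 0.32. The muscleblind genes went opposite ways, with Mbnl1 lower by 0.61 (SE 0.09, adjusted p = 5.36e-06) and Mbnl2 higher by 0.62 (SE 0.09, adjusted p = 4.98e-06), and Celf1 fell by 0.44 (SE 0.08, adjusted p = 0.000113).

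**Figure D5:**
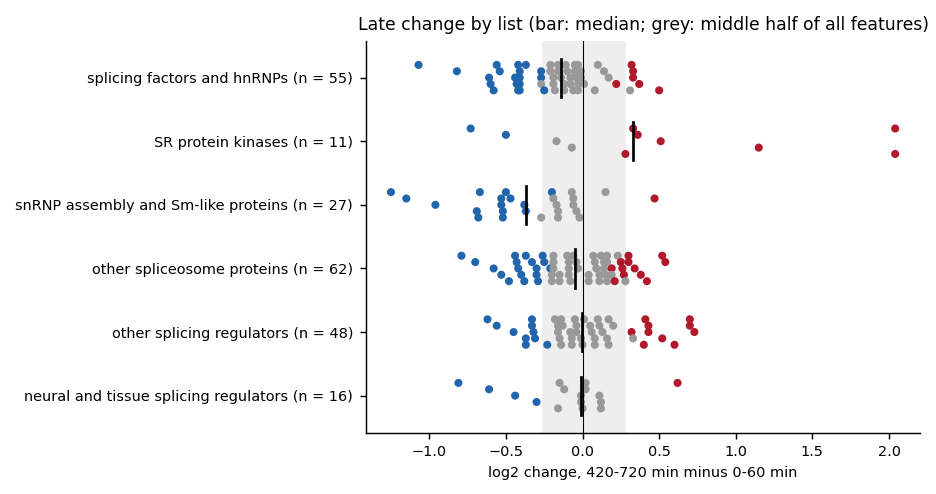
Late minus early change on the log2 scale of each tested gene (points; blue lower, red higher, grey not past the threshold) among the 55 members and in the 5 lists of other splicing genes. Black bars mark medians, and the grey band holds the middle quartiles of all tested features. The kinases spread upward to 2.04, and the assembly and Sm-like genes lie mostly below 0, down to -1.25.

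Marker genes of cell types also moved over the same times. Of 10 tested stem and progenitor markers 2 were higher and 5 lower late, of 6 neuronal markers 2 and 2, and of 7 astrocyte markers 2 and 3. The shares were 20% and 50%, 33.3% and 33.3%, and 28.6% and 42.9%, against 27.9% and 27.0% of all features. Gfap is in both the progenitor and the astrocyte list. Of 6 tested oligodendrocyte lineage markers 4 were higher and 0 lower, 66.7% and 0%. The mean signal of the 12 on the array went from 7.12 to 7.21 in the early arrays to 7.59 to 7.75 in the late arrays. Of these 12, Sox10, Mog, Mag, Enpp6, Nkx2-2 and Mobp lay below the filter. All 10 microglia and macrophage markers were below the filter, and 3 of 3 tested endothelial and mural markers were lower, with 8 of the 11 on the array below the filter. The part of these shifts in the changes of splicing genes was not tested.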

How the data were processed

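The table deposited by the authors holds log2 values of 17 bead arrays, as read from their range of 5.14 to 15.47. The labels state no unit, and the sources used here name no scanner software, background correction or normalization. Sorted values were nearly equal between arrays (largest spread 0.135 at 1 rank), so no scaling was added. Total RNA was amplified and labelled with biotin, per the labels' protocols. Of 19949 probes 18351 had 1 symbol, 0 several and 1598 none. Symbols were updated through RefSeq for GRCm38.p6, 16482 by gene identifier and 956 by accession, and 913 were kept.

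limma 3.58.1 in R 4.3.3 fitted a natural cubic spline (4 df, square root of minutes) and window means to 9940 features, with Benjamini-Hochberg adjustment over all of them. Neighbouring times stood in for replicates, so p-values measure only the spread within 1 series of arrays. Members, windows, gene lists and the naming rule were chosen with earlier results of these data known. The rule named up to 3 rises, falls and widest curves per family, the largest changes of the second and the third window, the flattest and brightest members, all U2af genes and up to 4 genes per list. Other members are named after their values were seen. No detection p-value was used, and the number of arrays limits precision. Simulated data had independent normal noise and a step right after the early window, added to 66 or 67 features for each size. On these data the late-window test recovered 37.3% of changes of 0.3, 98.5% of 0.6 and 100% of 1. Its false calls were 14 among the features left unchanged, of 9940 in all. For these sizes the time-course test recovered 10.4%, 65.7% and 100%, the second-window test 41.8%, 94% and 100%, and that of the third window 34.3%, 82.1% and 100%. The real arrays follow one another in time and 54.9% of all features changed late, so these rates need not carry over. Alternatives covered scaling, filter, variance model, array weights, curve, window limits, membership and each array left out.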

Additional observations from a re-analysis of the deposited data

Results flagged for a closer look

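Within the windows of 4 or 5 arrays, 7 of 165 series of values had 1 array far from the others by Dixon's criterion, and chance gives about 1 in 20. At 30 min Hnrnpa0 was at 12.00 with the other early arrays at 11.66 to 11.72, Hnrnpf at 9.36 with the others at 9.65 to 9.72, and Hnrnph3 at 7.29 with the others at 7.51 to 7.59. In the second window Snrpa was at 10.81 at 120 min and otherwise at 11.10 to 11.14. In the late window Sf3a1 was at 11.54 at 480 min and otherwise at 11.13 to 11.20. At 720 min Srsf3 was at 9.39 with the others at 9.81 to 9.95, and Snrpd2 at 12.74 with the others at 13.17 to 13.29.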

How the results depend on the processing

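No paired analysis was possible because each time had 1 array and replicate numbers within a window were given in accession order. Leaving out each array in turn gave 23 to 28 changed members in the late window (18 to 21 lower, 4 to 7 higher), 21 to 28 between the second and late windows, 1 to 3 in the second window (all lower; 1 without 180 min), 5 to 15 in the third (4 to 13 lower, 1 to 3 higher; 8 without 300 min, 6 of them lower, and 5 without 360 min) and 27 to 31 over the time course. Other settings gave 24 to 28 late, 24 to 27 between the second and late windows and 26 to 30 over the time course. With other window limits 1 member changed in the second window, lower, and 9 in the third, 7 of them lower, with fewer arrays in the fit.

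The direction of the largest departure of a curve from 0 min turned for several genes. When the array at 0 min was left out, the 0 min value of the curve was extrapolated from the later arrays. The departure from that value was -0.54 for Srsf11, 0.45 for Srsf5, -0.48 for Snrpa and -0.40 for Snrpb. For Snrpd2 it was 0.30, for Hnrnpdl -0.36, for Hnrnph2 -0.67 and for Syf2 -0.63. With array weights it was 0.35 for Srsf5, -0.20 for Snrpb, -0.25 for Hnrnph2, 0.20 for Hnrnpll and -1.06 for Clk1. It was 0.18 for Prpf40b with 3 df, -0.33 for Hnrnph2 on plain minutes, and -0.79 for Clk1 without 420 or 480 min. The cause was not tested. Fitted curves lay closest to the end arrays, with a median residual of 0.0378 at 0 min and 0.0526 at 720 min against 0.0768 to 0.1 elsewhere.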
